A study of Mus musculus with 7 samples.

Results

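The transcripts examined were those of 10 genes of fatty acid synthesis in the liver, namely the enzyme genes Fasn, Acaca, Acacb, Acly, Acss2 and Me1, the regulator genes Srebf1, Mlxipl and Thrsp, and the lipase gene Pnpla3. They were chosen by name, with earlier results of these data known, among 19938 genes that have a probe set of their own on the array. Each was read by its brightest probe set over the 7 arrays. RNA of the left liver lobe came from male littermates on a C57BL/6 background, each on 1 array. The 4 controls had 1 floxed and 1 wild-type Trpm6 allele (Trpm6 fl/+), and controls 1 and 2 were 12 weeks old and controls 3 and 4 were 13 weeks old. In the 3 Trpm6-deficient mice, labelled mutant, an exon was missing from both Trpm6 alleles. By the study's cross 1 allele was inherited already deleted, and the floxed one was deleted with Sox2-Cre, which acts in the epiblast and hence in all organs and not only in the liver. The genotype given for the controls holds no Cre, so that the transgene and the deletion cannot be told apart. Trpm6-deficient 2 was 12 weeks old, and Trpm6-deficient 1 and 3 were 13 weeks old. The values are log2 expression values, so that a difference of 1 is a doubling of the signal. Trpm6 itself was at 5.50 to 5.53 in control and 5.37 to 5.50 in Trpm6-deficient livers, with groups that overlap, and whether its probe set reads the deleted exon was not examined.

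In hepatocytes, surplus carbohydrate is turned into fat from cytosolic acetyl-CoA. ATP citrate lyase (Acly) cuts citrate to acetyl-CoA and acetyl-CoA synthetase (Acss2) makes it from acetate, the acetyl-CoA carboxylases (Acaca and Acacb) carboxylate it to malonyl-CoA, and fatty acid synthase (Fasn) builds palmitate from it with NADPH, part of which comes from malic enzyme (Me1). SREBP1 (Srebf1), which insulin and the oxysterol receptor LXR induce, and ChREBP (Mlxipl), which responds to glucose, are the transcription factors known to drive these genes. Spot 14 (Thrsp) supports lipogenesis, and Pnpla3 encodes a lipid droplet protein that SREBP1 is known to induce.

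Short stretches before the gene starts are shown for the 5 genes that hold the letters TCACCC, the core of the sterol regulatory element that SREBP proteins bind, so that the sequence before each of these genes can be set beside its values in the livers. RefSeq lists 14 starts for the 10 genes, and all 10 genes were matched by symbol. The 250 bases before each start were searched on both strands. Each line gives 30 bases of GRCm38.p6, written 5′ to 3′ on the strand of the gene, with TCACCC in capitals.
Srebf1: attggccatgtgcgcTCACCCgaggggcgg
Acss2: caggctccgcccTCACCCgaggccccgcct
Pnpla3: cctcagctgacgTCACCCgaagacagctta
Fasn: gttgccggcccaTCACCCtattgcctagca
Me1: gcggcccgccccTCACCCgtcggggcccag
The stretches lie at chr11:60210472-60210501 on the minus strand for Srebf1, at chr2:155518000-155518029 on the plus strand for Acss2 and at chr15:84167763-84167792 on the plus strand for Pnpla3. The stretches of Fasn and Me1 lie on the minus strand at chr11:120824658-120824687 and chr9:86695999-86696028. The match begins 15 bases before the start in Srebf1, 31 in Acss2, 41 in Pnpla3, 128 in Fasn and 102 in Me1. The gene records of Srebf1, Fasn and Pnpla3 reach beyond the start used here, so that these stretches may lie inside longer transcripts. In Srebf1, Acss2 and Pnpla3 the core is followed by GA, and this longer form, TCACCCGA, was found before 115 of 32851 starts, or 0.35%, and for 0.414% of all genes. The core TCACCC is common, at 13.8% of all starts and for 15.6% of all genes. The longer form was picked after the sequences had been seen, and a match is not evidence of binding. The sterol regulatory element of the LDL receptor gene was searched in the same way. That element was found before 0 of the 14 starts, for 0 of the 10 genes and for 0.0814% of all genes. The E-box CACGTG, at 6.02% of all starts, was found before 1 of the 14, a start of Mlxipl, the gene of a factor that binds E-boxes.
Mlxipl: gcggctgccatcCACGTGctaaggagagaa
This stretch lies at chr5:135089780-135089809 on the plus strand, with the E-box in capitals 98 bases before the start. The CCAAT box, which NF-Y binds beside SREBP, was found for 8 of the 10 genes and for 37.5% of all genes. The CCAAT box and TCACCC lay before the same start in Srebf1, Acss2, Pnpla3 and Fasn, and before different starts in Me1. Acacb, Mlxipl and Thrsp held a CCAAT box and no TCACCC. The GC box GGGCGG, which Sp1 binds, was found for 6 of the 10 and for 35.4% of all genes.

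Fasn, Acaca, Acly, Acss2, Srebf1 and Pnpla3 had log2 changes between 0.46 and 0.68 in Trpm6-deficient against control livers, and the other 4, Acacb, Me1, Mlxipl and Thrsp, between -0.07 and 0.20. None of the 10 passed limma's test at the threshold of the study's methods, 0.1 after adjustment, which 0.129% of all 35556 probe sets passed. Before adjustment, a limma p within 0.05 is called nominal here. Of the 10 genes 4 were nominally higher and none was nominally lower, where 3.85% of all probe sets were nominally higher and 3.03% lower (6.78% higher among those at least as bright as Pnpla3, the dimmest of the 10). These 4 were Pnpla3, Srebf1, Acss2 and Acaca. The groups did not overlap for 4 genes, Pnpla3, Srebf1, Acaca and Acly, all of them higher in Trpm6-deficient livers, where 2.94% of all probe sets were higher and 2.38% lower without overlap (5.36% higher among those at least as bright as Pnpla3). With each probe set's own pooled variance in place of limma's moderated one, none passed after adjustment and 2, Srebf1 and Pnpla3, were nominally higher, as were 2.87% of all probe sets. The median log2 change of the 10 genes was 0.55, and that of all probe sets was 0.00. These counts and this median only describe the 10 genes, which were chosen with earlier results of these data known. No test over the list is given. The count of 4 became 6 without control 1, 5 without Trpm6-deficient 1 and 2 without control 3. Without control 2 it stayed at 4, with Acly in place of Srebf1. The count was 1 each without control 4, Trpm6-deficient 2 and Trpm6-deficient 3, and the 1 gene that remained each time was Pnpla3. On leaving out 1 liver, 3.07% to 4.54% of all probe sets were nominally higher.

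**Figure D1:**
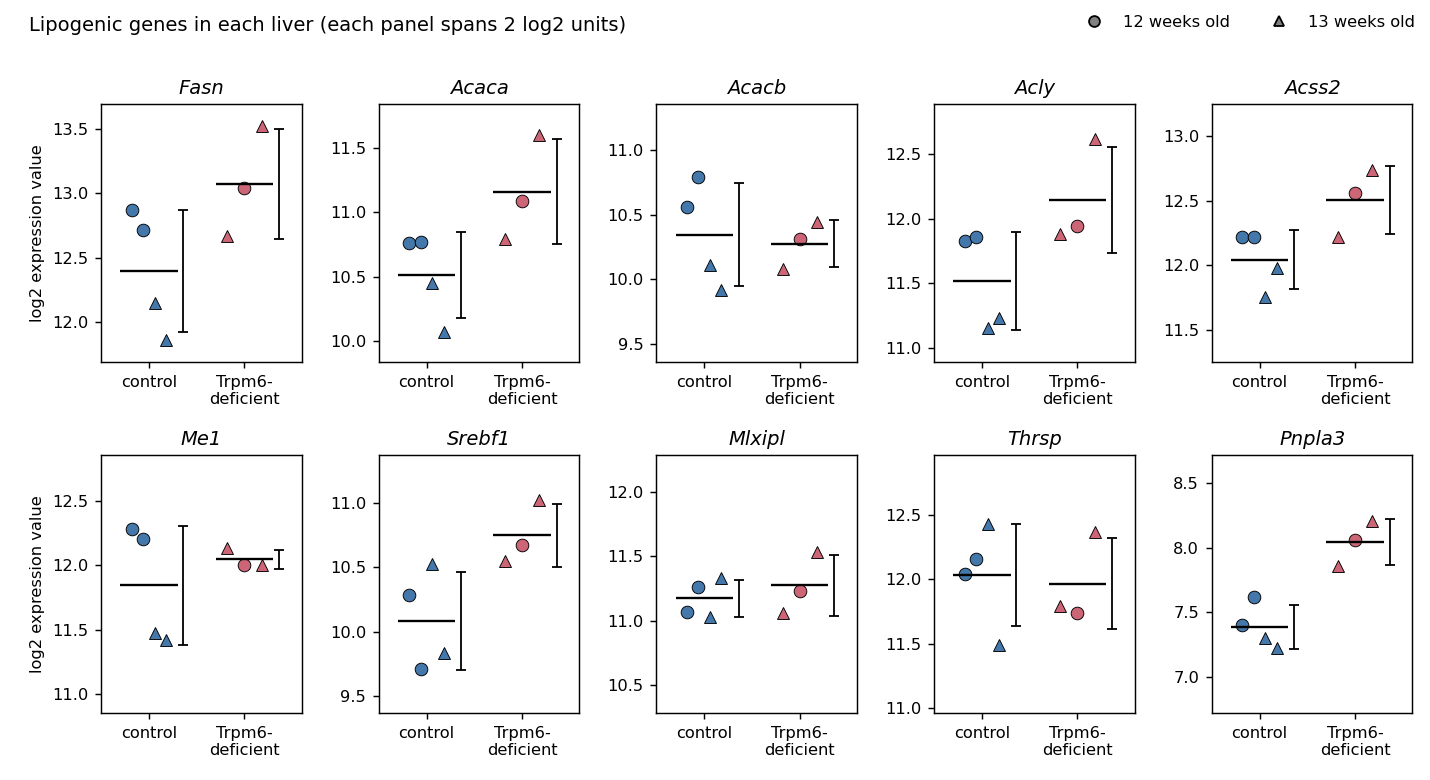
Log2 expression values (y axis) of the 10 genes in control (blue, n = 4) and Trpm6-deficient (red, n = 3) livers, 1 point per liver in the order of the replicate numbers; circles are 12-week-old and triangles 13-week-old mice, lines are group means and bars the SD. The groups are apart for Acaca, Acly, Srebf1 and Pnpla3, and the 13-week-old controls lie below the 12-week-old ones for 7 of the 10 genes.

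Pnpla3 had the smallest p of the 10 genes. Its log2 values were 7.40, 7.62, 7.30 and 7.22 in controls 1 to 4 and 7.86, 8.06 and 8.21 in Trpm6-deficient 1 to 3. Every Trpm6-deficient liver lay above every control liver. The log2 change was 0.66 (SE 0.12, limma adjusted p = 0.273), or 1.58-fold with a 95% interval of 1.29 to 1.94. The limma p before adjustment was 0.00136. In all 17 alternatives tried, among them the test with each probe set's own variance, the p before adjustment stayed within 0.05. The log2 change lay between 0.58 and 0.78 in these alternatives.

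Srebf1, the regulator, came next by its p. Controls 1 to 4 were at 10.28, 9.71, 10.52 and 9.83, and Trpm6-deficient 1 to 3 at 10.55, 10.67 and 11.02. The groups were only just apart, since Trpm6-deficient 1 lay close above control 3. The log2 change was 0.66 (SE 0.23, limma adjusted p = 0.649), or 1.58-fold with a 95% interval of 1.08 to 2.31. Before adjustment, Srebf1 had a p within 0.05 in 12 of the 17 alternatives. SREBP1a and SREBP1c, which come from this 1 gene, were not told apart. Mlxipl, which encodes ChREBP, was at 11.07, 11.26, 11.03 and 11.33 in controls and 11.06, 11.23 and 11.53 in Trpm6-deficient livers, with overlapping groups and a log2 change of 0.10 (95% interval -0.22 to 0.42). Thrsp was at 12.04, 12.16, 12.43 and 11.49 in controls and 11.79, 11.74 and 12.37 in Trpm6-deficient livers. The groups overlapped over most of their range, and its log2 change of -0.06 had a wide 95% interval of -0.68 to 0.55.

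Of the enzymes that supply acetyl-CoA, Acss2 was at 12.22, 12.22, 11.75 and 11.98 in controls and 12.22, 12.56 and 12.74 in Trpm6-deficient livers. Trpm6-deficient 1 equalled the 2 highest controls and the others lay above all controls, for a log2 change of 0.46 (SE 0.17, limma adjusted p = 0.672). Acly was at 11.83, 11.86, 11.15 and 11.23 in controls and 11.88, 11.94 and 12.62 in Trpm6-deficient livers. The groups were apart, but Trpm6-deficient 1 and 2 lay close above controls 1 and 2, and the log2 change was 0.63 (95% interval -0.01 to 1.27, limma adjusted p = 0.747).

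The carboxylase genes are given side by side. Acaca, the cytosolic enzyme whose malonyl-CoA feeds synthesis, was at 10.76, 10.77, 10.45 and 10.07 in controls and 10.79, 11.09 and 11.60 in Trpm6-deficient livers, with groups apart and a log2 change of 0.65 (SE 0.25, limma adjusted p = 0.688). Acacb, the enzyme at the mitochondrial membrane whose malonyl-CoA restrains the uptake of fatty acids by CPT1, was at 10.56, 10.79, 10.11 and 9.92 in controls and 10.08, 10.31 and 10.44 in Trpm6-deficient livers. All Trpm6-deficient values of Acacb lay within the range of the controls, and its log2 change was -0.07 (95% interval -0.61 to 0.47). The log2 value of Acaca less that of Acacb, taken within each liver, was 0.20, -0.02, 0.34 and 0.15 in controls and 0.71, 0.78 and 1.16 in Trpm6-deficient livers. The groups were apart in this difference, by 0.72 on average, and since the pair was singled out after its values had been seen no test is given. The share of other gene pairs with groups apart was not counted. A second probe set of Acaca had a log2 change of 0.74 (SE 0.27, limma adjusted p = 0.672), also with groups apart.

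Fasn was at 12.87, 12.72, 12.15 and 11.86 in controls and 12.67, 13.04 and 13.52 in Trpm6-deficient livers. Trpm6-deficient 1 lay below both 12-week-old controls and above both 13-week-old ones. The log2 change was 0.68 (SE 0.31, limma adjusted p = 0.770), the highest of the 10, with a 95% interval of -0.07 to 1.42. Me1 was at 12.28, 12.20, 11.47 and 11.42 in controls and 12.13, 12.00 and 12.00 in Trpm6-deficient livers. The Trpm6-deficient values of Me1 lay close together, between the pair of high and the pair of low controls, and its log2 change was 0.20 (95% interval -0.39 to 0.79). The second probe set of Me1 gave 0.20 as well.

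**Figure D2:**
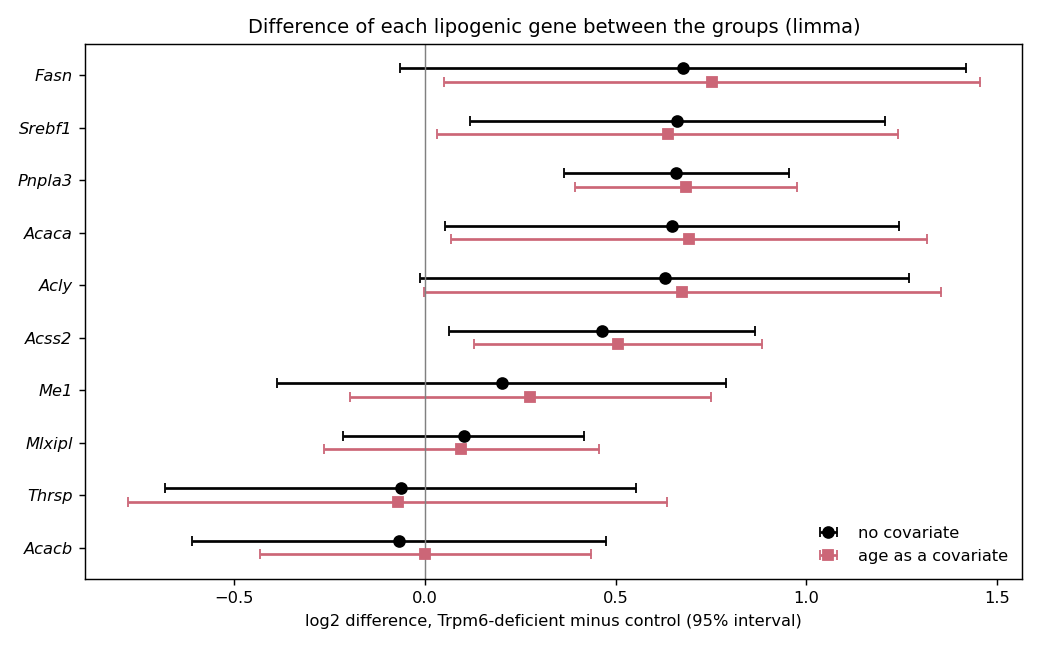
Log2 difference of Trpm6-deficient (n = 3) minus control (n = 4) livers (x axis) for each gene (y axis), with 95% intervals from limma, without a covariate (black circles) and with age as a covariate (red squares). The intervals of Pnpla3, Srebf1, Acaca and Acss2 lie above 0 in both fits, and those of Me1, Mlxipl, Thrsp and Acacb span 0.

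Trpm6-deficient 3 was the highest of its group in 9 of the 10 genes and above the control mean in all 10, and its median difference from the control mean was 0.76. This median was 0.47 in Trpm6-deficient 2 and 0.27 in Trpm6-deficient 1, which was the lowest of its group in 8 genes. Among the controls it was 0.21 and 0.25 in the 12-week-old controls 1 and 2, and -0.19 and -0.36 in the 13-week-old controls 3 and 4. Without Trpm6-deficient 3 the median log2 change of the 10 genes was 0.37, and without Trpm6-deficient 1 it was 0.68.

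The control livers divided by age in 7 of the 10 genes, in which both 12-week-old controls lay above both 13-week-old ones, as they did in 14.2% of all probe sets. The 7 were Fasn, Acaca, Acacb, Acly, Acss2, Me1 and Pnpla3, and the 13-week-old mean less the 12-week-old mean ran from -0.25 for Pnpla3 to -0.79 for Fasn and -0.80 for Me1. Srebf1, Mlxipl and Thrsp showed no such division. Whether mice of one age shared a litter, cage or day is not given in the sources used here, so that age cannot be told apart from these. With age as a covariate the log2 changes were 0.75 for Fasn (limma adjusted p = 0.634), 0.69 for Acaca, 0.64 for Srebf1 and 0.69 for Pnpla3 (adjusted p = 0.262), and 5 genes, these 4 and Acss2, were nominally higher, as were 4.00% of all probe sets. Among the 13-week-old livers alone, 2 against 2, the log2 changes were 1.09 for Fasn, 0.94 for Acaca, 1.06 for Acly, 0.62 for Me1, 0.61 for Srebf1, 0.78 for Pnpla3, 0.25 for Acacb and 0.12 for Thrsp, and the Trpm6-deficient livers lay above the controls without overlap for 7 of the 10 genes, as they did for 12.8% of all probe sets. Acly, Me1 and Pnpla3 were nominally higher there, as were 2.86% of all probe sets. Between Trpm6-deficient 2 and the mean of the 12-week-old controls the log2 differences were 0.25 for Fasn, 0.33 for Acaca, 0.10 for Acly, 0.34 for Acss2, 0.68 for Srebf1 and 0.55 for Pnpla3. They were -0.37 for Acacb, -0.36 for Thrsp and -0.24 for Me1, so that these 3 genes had opposite signs at the 2 ages. The change of the group difference with age did not pass limma's test for any of the 10 genes (adjusted p = 0.940 for Me1, the lowest). That test rests on 1 Trpm6-deficient liver at 12 weeks, takes its spread from the other livers, and was added after the values had been seen.

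The genes around the 10 were read from related lists, each count to be set against the 3.85% of all probe sets that were nominally higher and the 3.03% that were lower. Of 9 measured genes that supply precursors and NADPH, none passed limma's test after adjustment and 1 was nominally higher, Pdha1 of pyruvate dehydrogenase, with a log2 change of 0.21. Pgd, the NADPH-forming enzyme of the pentose phosphate pathway, had one of 0.36, and the citrate carrier gene Slc25a1 one of -0.09. Of 8 genes of glucose entry and targets of ChREBP, none passed, with 1 nominally higher and 1 lower. These were the fructokinase gene Khk with a log2 change of 0.37 and the glycerol phosphate dehydrogenase gene Gpd1, which was at 12.41 to 12.74 in controls and 12.16 to 12.27 in Trpm6-deficient livers. Slc2a2, the glucose transporter gene of hepatocytes, had a log2 change of 0.25. The median log2 changes of these lists were 0.07 and 0.10.

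Downstream of Fasn, none of 9 desaturase and elongase genes passed, with 1 nominally higher and 1 lower. Scd2, a stearoyl-CoA desaturase of tissues other than adult liver, was at 7.27 to 7.43 in controls, 7.50 in Trpm6-deficient 1, and 9.83 and 9.80 in Trpm6-deficient 2 and 3. Its log2 change was 1.67 (limma adjusted p = 0.649). It passed without Trpm6-deficient 1 (log2 change 2.44, limma adjusted p = 0.00112), a pass that came on removing the liver of its group that lacked the rise. Scd1, the main desaturase gene of liver, singled out after its values had been seen, was at 14.09 to 14.24 in controls and 14.22 to 14.31 in Trpm6-deficient livers, among the brightest probe sets. Elovl3, an elongase gene of male mouse liver, was at 12.35 to 13.66 in controls and at 9.88, 7.06 and 6.28 in Trpm6-deficient livers. Its log2 change was -5.50 (limma adjusted p = 0.191). Elovl3 passed without Trpm6-deficient 1 (limma adjusted p = 0.0318), again the liver of its group nearest to the controls. Elovl6, which lengthens the palmitate that FASN makes and is an SREBP1 target, had a log2 change of 0.52 (adjusted p = 0.836). Of 8 genes of glycerolipid synthesis none was nominally higher or lower, and their median log2 change was -0.01. Gpam, which encodes the first enzyme of that pathway, had a log2 change of 0.56 (adjusted p = 0.810), Lpin2, the gene of a phosphatidate phosphatase, one of -0.51 (adjusted p = 0.807) and Dgat2, which encodes one of the last enzymes, one of 0.15.

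None of 13 genes that process SREBP or pair with the regulators passed limma's test, with 1 nominally higher and 2 lower. Srebf2, the gene of the SREBP of cholesterol synthesis, had a log2 change of 0.28 (adjusted p = 0.669). Mbtps1, which encodes the protease that makes the first cut in SREBP, had one of -0.37 (adjusted p = 0.429) with groups apart, and Rxra, the partner gene of LXR, one of -0.26. Of 8 genes that control malonyl-CoA none passed and 2 were nominally lower, the AMPK subunit gene Prkaa2 at -0.26 and Stk11, the gene of an AMPK kinase, at -0.19. Prkag2, another AMPK subunit gene, had a log2 change of 0.28. Of 7 cholesterol synthesis genes under SREBP2 none was nominally higher or lower, and their median log2 change was 0.08. Lss, the lanosterol synthase gene, had the one with the smallest p, 0.56 (adjusted p = 0.783), and Cyp51 and Hmgcs1, of the same pathway, had changes of 0.29 and 0.23.

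**Figure D3:**
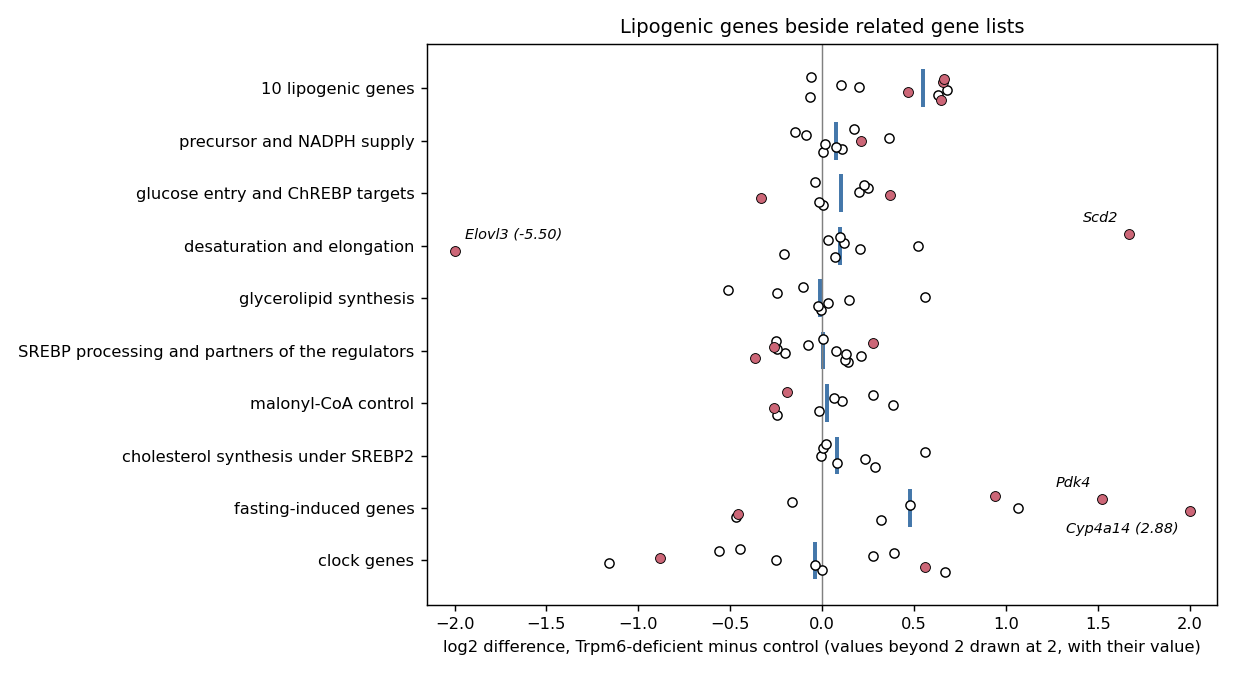
Log2 difference of Trpm6-deficient minus control livers (x axis) for the measured genes of each list (rows), with filled points where the limma p before adjustment is within 0.05 and the median of the list as a blue line. The median is 0.55 for the 10 lipogenic genes and 0.48 for the fasting-induced genes, and lies between -0.04 and 0.10 for the other 8 lists.

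Recent feeding and time of day also move lipogenic genes, and neither is given for the collection of these livers in the sources used here. Of 9 measured genes known to be induced by fasting, none passed limma's test, and their median log2 change was 0.48. Of the 9, 3 were nominally higher and 1 lower, where 3.85% and 3.03% of all probe sets were. By sign 6 were higher and 3 lower. The groups were apart for 4 higher genes and 1 lower gene, where 2.94% and 2.38% of all probe sets were apart. Cyp4a14, a fatty acid hydroxylase gene, and Pdk4, the kinase gene that shuts off pyruvate dehydrogenase, had log2 changes of 2.88 and 1.52 (limma adjusted p = 0.415 and 0.429) with groups apart. Cpt1a, which encodes the gate for fatty acids into mitochondria, was at 12.03 to 12.40 in controls and 11.65 to 11.94 in Trpm6-deficient livers, and its log2 change was -0.46 (adjusted p = 0.432). Igfbp1, which fasting induces and insulin represses, was singled out after its values had been seen. It was at 12.57 in control 1, 9.47 to 10.43 in the other controls, and 12.71, 11.13 and 10.95 in Trpm6-deficient 1 to 3. The groups overlapped in Igfbp1. The part of feeding in the values of the 10 genes was not tested.

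Of 11 clock genes none passed, with Cry1 nominally higher at 0.56 and Nr1d2 nominally lower at -0.89. Control 3 stood apart in Arntl, which was singled out after its values had been seen, and was the highest control in Dbp. Its Arntl, the core clock gene, was at 6.51 against 8.54 to 8.61 in the other controls and 8.59 to 8.79 in Trpm6-deficient livers, and its Dbp, a clock output gene, was at 10.38 against 7.21 to 8.64 in the other controls. In the 10 genes control 3 was the highest control for Srebf1 and Thrsp and the lowest for Acly, Acss2 and Mlxipl. Without it the log2 change was 0.81 for Srebf1 and 0.07 for Thrsp, and Srebf1 and Pnpla3 were the genes that stayed nominally higher.

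**Figure D4:**
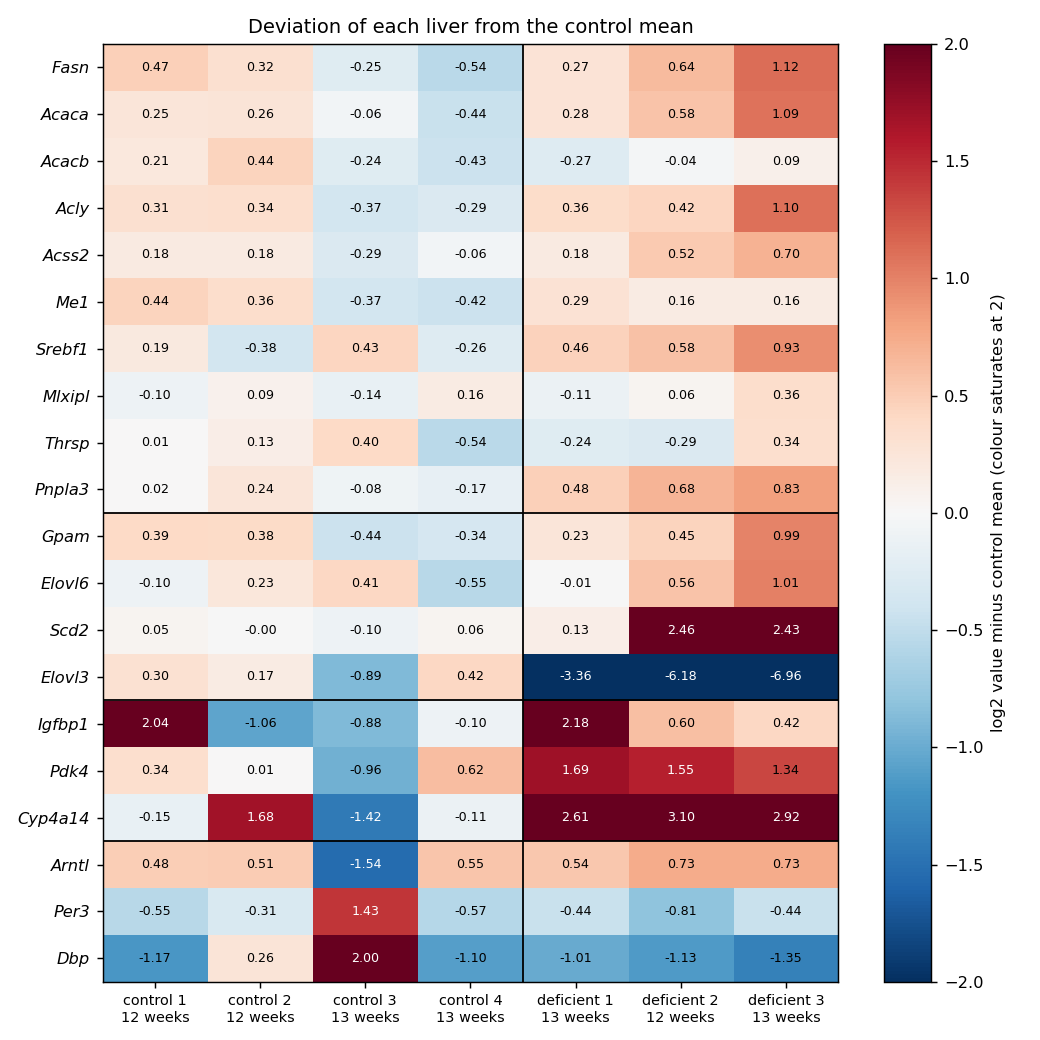
Log2 value of each liver (columns) minus the control mean, for the 10 lipogenic genes, 4 genes of fatty acid and glycerolipid synthesis downstream, 3 fasting-induced genes and 3 clock genes (rows), with the colour saturating at 2. Trpm6-deficient 3 is the highest in most lipogenic genes, and control 3 departs in the clock genes Arntl and Per3 and is the highest liver in Dbp.

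The genes most like Fasn and Srebf1 were ranked by the root mean square difference of log2 values, each centred on its control mean, over the 7 livers. Of 17018 genes that averaged 5 or more in log2 value, those nearest to Fasn were Acaca (0.12 log2 units), Gpam (0.14), Acly (0.15), Tceal8 (0.18) and Pstpip2 (0.21). The list so held 2 of the other 9 lipogenic genes and the glycerolipid gene Gpam. Those nearest to Srebf1 were Steap2 (0.19), Kank2 (0.21), Crip1 (0.22), Sulf2 (0.22) and the sulfotransferase gene Sult1a1 (0.23), with no lipogenic gene among them.

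Markers were read for the hepatocytes of the labelled tissue, for adipocytes, which also make fat, and for other cell types of liver. The 9 measured hepatocyte markers had a median log2 change of 0.01, and the log2 of their summed level was 16.97 to 17.10 in control and 17.06 to 17.10 in Trpm6-deficient livers. For the 7 measured adipocyte markers it was 9.70 to 10.03 in control and 9.60 to 9.66 in Trpm6-deficient livers. The defining marker Adipoq was at 4.40 to 4.67, below the lower quartile of every array (5.05 to 5.11). Fabp4 at 7.33 to 8.09, Lipe at 7.99 to 8.75 and Cidec at 6.94 to 7.06 lay above every array's median (6.43 to 6.48). Lep lay below these medians, and Plin1 and Retn lay near them. Summed in the same way, the 6 Kupffer cell markers lay at 11.56 to 12.55 and 11.84 to 11.97, lowest in control 1. The 8 endothelial and stellate cell markers lay at 12.12 to 13.15 and 12.42 to 12.89, and the 4 bile duct markers at 9.07 to 9.36 and 9.15 to 9.43. None of these markers passed limma's test. Nominally higher were 1 hepatocyte, 2 endothelial or stellate and 1 bile duct marker, and 1 adipocyte marker was nominally lower. Of all probe sets 3.85% were nominally higher and 3.03% lower. By sign, 4 of 9 hepatocyte, 6 of 7 adipocyte and 5 of 6 Kupffer cell markers were lower. So were 6 of 8 endothelial and stellate and 1 of 4 bile duct markers, and 17677 of all 35556 probe sets. The part of other cells in the values of the 10 genes was not tested. In whole liver, fewer cells of a type and less RNA per cell cannot be told apart. The number of arrays limits the precision of all these values.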

How the data were processed

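Gene expression was measured in 7 mouse livers, 1 Affymetrix Mouse Gene 1.0 ST array each. The authors deposited 1 table of log2 values for 35556 probe sets, rounded to 2 decimals, and the submitters' processing notes name RMA and Affymetrix Expression Console 1.4.0. Groups, ages and replicate numbers came from the sample labels. Genes were named by the table's symbols, with 21789 probe sets carrying 1 symbol, 1621 several and 12146 none, and the brightest 1-symbol probe set stood for a gene. Detection calls were not used here, so that whether a value lay above background was not examined. The deposited log2 values were compared with limma 3.58.1 in R 4.3.3, limma being the test of the study's methods, all probe sets in 1 fit without covariates, with Benjamini-Hochberg adjustment over all 35556 and a threshold of 0.1 from the study's methods. A p within 0.05 before adjustment, called nominal, was counted separately. A test with each probe set's own pooled variance, without limma's moderation, was an alternative, beside other array scalings, filters on probe sets, age and replicate number as terms, a variance trend, array weights, the 13-week-old livers alone and leaving out each liver. The limma p-values set each group difference against the moderated spread between mice within a group. In the fit without covariates, any part of age, litter, cage or day in that spread was not separated. The fits were tested on simulated data first. Members and lists were chosen with earlier results of these data known. Named list genes were, per list, those that passed and the 3 with the smallest p, and Igfbp1, Arntl, Per3 and Scd1 were added after their values had been seen. The test of a changed group difference with age was also added after seeing the data. Promoters were RefSeq sequences of GRCm38.p6.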

Additional observations from a re-analysis of the deposited data

Results flagged for a closer look

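Among the 4 control livers, control 3 lay far from the others in 2 of 47 named genes tested for such a gap, both clock genes. Its log2 value of Arntl was 6.51, where the other controls were at 8.54 to 8.61. Its log2 value of Per3 was 8.41, where the other controls were at 6.41 to 6.67. Chance alone flags about 1 in 20 such groups when genes vary independently. Whether these clock genes do so was not examined, so that 2 of 47 is not judged against that share. Arntl and Per3 were both added to the named genes after their values had been seen, so that their flags are a description only.

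For Me1 the group difference ran opposite ways at the 2 ages. At 12 weeks the Trpm6-deficient liver (12.00) lay below both controls (12.28 and 12.20), and at 13 weeks both Trpm6-deficient livers (12.13 and 12.00) lay above both controls (11.47 and 11.42). The difference at 13 weeks exceeded that at 12 weeks by 0.86 log2 units (SE 0.12, limma adjusted p = 0.940), which did not pass the test over all probe sets. The 12-week arm holds 1 Trpm6-deficient liver, so that the SE comes from the other livers, and the test was added after the values had been seen.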

How the results depend on the processing

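In all 17 alternatives 0 of the 10 lipogenic genes passed the adjusted threshold, and their median log2 change lay between 0.37 and 0.68. The 4 nominally higher genes became 2 with each probe set's own variance in place of limma's moderated one and 1 to 6 on leaving out 1 liver. The replicate numbers were not taken to pair the mice. Deviations of same-numbered livers correlated at 0.33, 0.26 and 0.09, Trpm6-deficient 3 correlated best with control 4 (0.23), and with the replicate number as a block 2 lipogenic genes were nominally higher, as were 4.89% of all probe sets, and after adjustment 0 lipogenic genes and 1 probe set passed. The 46 probe sets that passed became 70 when probe sets averaging under 5 were left out, 8 with age as a covariate, 8 with unmoderated variances, 0 among the 13-week-old livers alone and 7 to 69 on leaving out 1 liver. Calls among desaturases and elongases were 0 to 2 on leaving out 1 liver, the 2 being Scd2 and Elovl3 without Trpm6-deficient 1. That liver was the nearest of its group to the controls in both genes. Direction turned for 3 genes close to 0. Acacb was at 0.001 with age, 0.25 among the 13-week-old livers and -0.21 to 0.08 on leaving out 1 liver. Thrsp was at 0.12 among the 13-week-old livers and -0.27 to 0.07 on leaving out 1 liver, and Mlxipl at -0.0275 to 0.21. The cause was not tested.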
